A study of Homo sapiens with 6 samples.

Results

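The genes described here encode iron-dependent demethylases of histones and nucleic acids and their relatives, some of which are not demethylases. They are 36 genes: 24 that encode proteins with a Jumonji C (JmjC) domain or a close relative of it, the TET enzymes that oxidise methylcytosine in DNA, and the ALKBH family with FTO. The members are the probe sets whose single gene symbol in the platform annotation is one of these 36 names. All 36 genes were found, out of 19775 genes with a single symbol, and together they have 101 probe sets, up to 8 for a gene. In every gene the probe set with the highest mean passed the filter on low values, and 89 of the 101 probe sets passed it.

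Most of these enzymes hold an Fe(II) ion in the active site and use molecular oxygen and α-ketoglutarate to hydroxylate a methyl group, which then leaves as formaldehyde. The chemistry is shared with the prolyl hydroxylases that mark hypoxia-inducible factors (HIF) for destruction, so loss of iron or oxygen can slow both. Several JmjC genes are also known as transcriptional targets of HIF in hypoxic cells. The arrays measured mRNA of these genes and not enzyme activity or methylation.

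RNA came from DMS-53, an established human small cell lung cancer line, on 6 Affymetrix arrays. The control cells (2 arrays) were kept in RPMI medium alone. The DFO cells (2 arrays) had 250 µM DFO, desferrioxamine, an iron-binding siderophore that enters cells poorly, in the same medium. The Dp44mT cells (2 arrays) had 25 µM Dp44mT, a thiosemicarbazone that crosses membranes and binds both iron and copper. Exposure was 24 h in each case. Each group has an array from set 1 and an array from set 2 of the titles, and the labels do not state whether the sets were separate cultures. The p-values below therefore rest on array-to-array spread alone, which may be purely technical. All groups are a single cell line at a single time, and the doses of the chelators differ.

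Values are log2(intensity + 16) after quantile normalization across the 6 arrays, called log2 levels below. The moderated test of limma (two-sided) was fitted across 16868 genes, and genes with a Benjamini-Hochberg adjusted p under 0.05 are said to be called, to have risen or to have fallen. Among all genes, 175 were called higher and 10 lower in DFO, and 323 higher and 246 lower in Dp44mT. The share of calls that were higher was 94.6% in DFO and 56.8% in Dp44mT, against 87.6% and 38.5% with array medians centred and 69.2% and 38.5% on the deposited scale. The deposited median intensity lay between 83.6 and 88.9 on the control and set 1 arrays, and at 63.0 and 49.9 on the set 2 arrays of DFO and Dp44mT. The median difference over all genes was −0.04 in DFO and 0.03 in Dp44mT, and it moved to −0.32 and −0.50 on the deposited scale. Of 12 neuroendocrine markers of the labelled cell line, 11 were measured and all of these passed the filter. Their summed normalized intensity was 32841 to 35026 in control, 26170 to 27293 in DFO and 23077 to 25414 in Dp44mT. Of 6 chelation markers, 5 were called higher in DFO and 5 in Dp44mT, where 1.04% and 1.91% of all genes were. Among them VEGFA rose 5.63-fold in DFO and 5.01-fold in Dp44mT. The transferrin receptor gene TFRC had log2 differences of 0.84 and 0.70 without passing (adjusted p = 0.128 and 0.0909, limma). Because the arrays read bulk RNA, fewer cells with an mRNA and less of it per cell cannot be told apart.

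In DFO, 2 of the 36 genes were called, both higher, where 1.1% of all genes were called and 1.04% were called higher. These were KDM3A and KDM4B. In Dp44mT, 4 of the 36 were called, all higher (KDM3A, KDM4B, JMJD6 and KDM2A), where 3.37% of all genes were called and 1.91% were called higher. No member was called lower in either comparison in the gene fit, where the background was 0.0593% and 1.46%. The other 34 genes in DFO and 32 in Dp44mT did not pass. A gene was read from the probe set with the highest mean over all 6 arrays, which favours probe sets that are high in the chelator arrays. In TET1, whose 2 probe sets had control means of 6.93 and 6.94, the probe set called lower in Dp44mT was left out of the gene fit in this way. KDM2A is among the 4 genes called in Dp44mT, and its probe set brightest in control, 208988_at, was also left out. That probe set had a difference of −0.41 in Dp44mT, so the count of 4 depends on this choice. At an unadjusted p under 0.05, 11 members were higher and 2 lower in DFO, where 5.76% and 7.59% of all genes were, and 12 were higher and 5 lower in Dp44mT, where 8.21% and 15.9% were. The median log2 difference over the 36 was 0.18 in DFO and 0.27 in Dp44mT, with −0.17 and −0.35 on the deposited scale, where the whole table shifted down.

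The JmjC genes and the TET, ALKBH and FTO genes are given side by side, with no test of a difference between them. The 24 JmjC genes, which include proteins that are not histone demethylases, had a median of 0.32 in DFO and 0.43 in Dp44mT, and 18 and 17 of them lay above the median of all genes. The 12 TET, ALKBH and FTO genes had medians of −0.18 and −0.30, and 4 and 5 of them lay above it. Within the JmjC genes, the 7 grouped as other JmjC proteins had medians of −0.19 and −0.07. On the deposited scale, 18 and 16 of the JmjC genes and 4 and 5 of the other 12 lay above the median of all genes on that scale, although the JmjC median itself was 0.04 in DFO and −0.15 in Dp44mT. In DFO, 19 members had both treated arrays above both control arrays and 11 had both below, where 17.1% and 30% of all genes did. In Dp44mT these counts were 17 and 11, where 30.3% and 33.1% of all genes did. These counts are descriptions, since the members were not drawn at random.

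**Figure D1:**
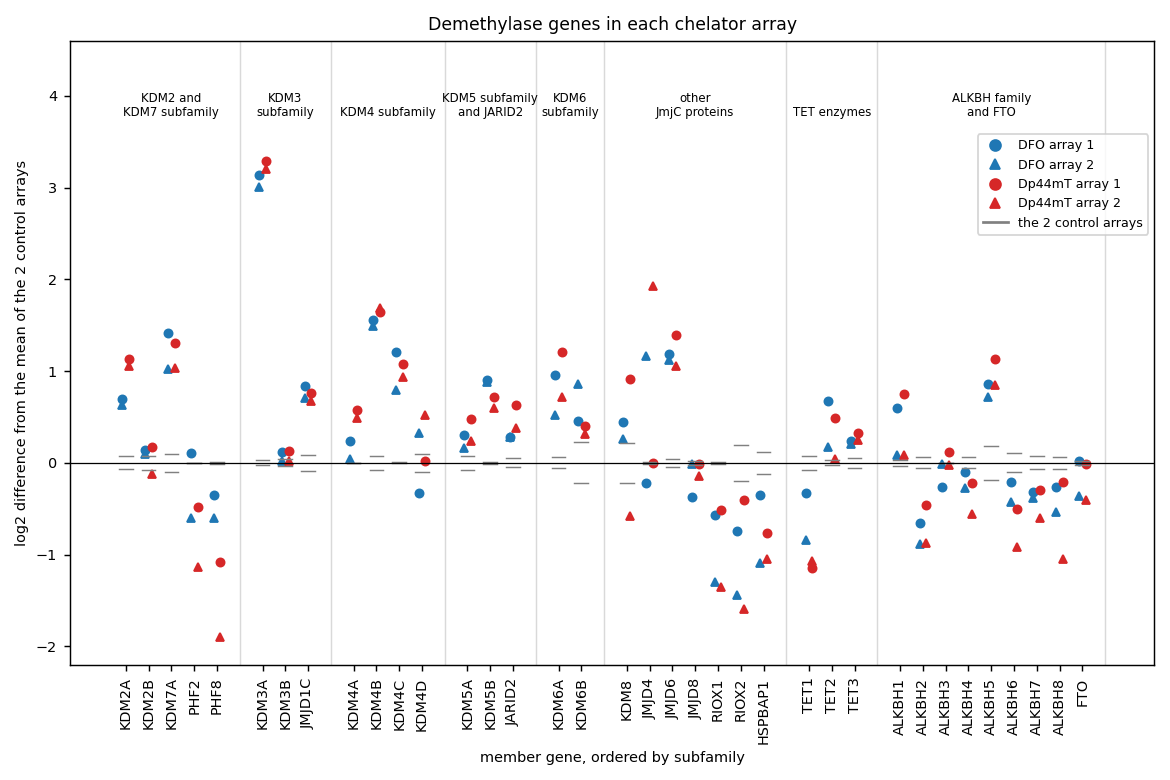
Each point is the log2 level of a member gene in 1 chelator array minus the mean of the 2 control arrays (y axis, log2), with genes ordered by subfamily on the x axis; grey bars mark the 2 control arrays, circles set 1 and triangles set 2. KDM3A stands about 3 log2 units above control in all 4 chelator arrays, and JMJD4 and KDM8 differ most between the arrays of 1 chelator.

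KDM3A carried the largest change of the members in both comparisons. It encodes a demethylase that removes methyl groups from histone H3 at silenced genes, and it is a known HIF target. Its deposited intensity was 775 and 869 in control, 7181 and 3966 in DFO and 7520 and 4127 in Dp44mT. As log2 levels these were 9.38 and 9.33 in control, 12.49 and 12.36 in DFO, and 12.65 and 12.56 in Dp44mT. All 4 chelator arrays lay far above both control arrays, and the set 2 arrays were level with set 1 after normalization. KDM3A rose by 8.39-fold in DFO (log2 3.07, SE 0.17, n = 2 arrays per group, limma adjusted p = 0.0108) and by 9.49-fold in Dp44mT (log2 3.25, SE 0.17, adjusted p = 0.00669). The 95% intervals ran from 2.65 to 3.49 and from 2.83 to 3.66 on the log2 scale. Its other probe set, a dim one whose name marks possible cross-hybridization (242758_x_at), had differences of 1.21 and 1.03 and did not pass.

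The close relatives of KDM3A did not follow it to the same extent. KDM3B, which encodes an enzyme of the same activity, had log2 levels of 9.76 and 9.68 in control, 9.83 and 9.74 in DFO, and 9.84 and 9.73 in Dp44mT. The 3 groups overlapped, and its differences were 0.07 in both comparisons, with intervals from −0.35 to 0.49. JMJD1C, a large family member with a role in transcription factor binding, had levels of 8.21 and 8.39 in control, 9.14 and 9.01 in DFO, and 9.05 and 8.97 in Dp44mT. Both chelators lay above control and overlapped each other, and the differences of 0.78 and 0.71 did not pass (adjusted p = 0.163 and 0.0931, limma).

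The start regions of these genes are shown because KDM3A and KDM4B were the members called with both chelators, and KDM3B is the relative of KDM3A with a difference near 0. Each is the 250 bases before the first listed start site, on the gene's strand, from RefSeq on build GRCh38.p14, where 33 of the 36 members matched an entry (JMJD6, RIOX1 and RIOX2 did not). Capitals mark ACGTG or GCGTG on either strand, the core letters of the HIF-binding element. The KDM3A region lies at chr2:86441121-86441370 on the plus strand, the KDM3B region at chr5:138352435-138352684 on the plus strand and the KDM4B region at chr19:4968863-4969112 on the plus strand.
KDM3A: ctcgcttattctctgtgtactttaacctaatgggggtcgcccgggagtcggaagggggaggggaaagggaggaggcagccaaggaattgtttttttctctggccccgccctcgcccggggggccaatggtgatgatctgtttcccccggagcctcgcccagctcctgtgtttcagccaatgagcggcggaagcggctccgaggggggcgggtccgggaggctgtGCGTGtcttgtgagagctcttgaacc
KDM3B: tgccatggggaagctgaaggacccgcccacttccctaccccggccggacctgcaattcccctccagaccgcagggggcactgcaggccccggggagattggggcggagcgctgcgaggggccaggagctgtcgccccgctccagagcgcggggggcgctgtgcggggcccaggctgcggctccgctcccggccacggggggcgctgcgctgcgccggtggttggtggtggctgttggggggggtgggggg
KDM4B: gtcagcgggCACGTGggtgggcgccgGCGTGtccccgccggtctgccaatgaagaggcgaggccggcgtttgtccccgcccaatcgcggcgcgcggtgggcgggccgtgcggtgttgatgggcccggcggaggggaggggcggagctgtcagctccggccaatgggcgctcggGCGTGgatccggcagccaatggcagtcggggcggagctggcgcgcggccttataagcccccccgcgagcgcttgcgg
The KDM3A window held 1 such match, 26 bases before the start, and the KDM3B window held 0. The KDM4B window held 4, of which 2 are the overlapping readings of a palindromic CACGTG on both strands. Either motif occurred in 21 of the 33 member windows and in 43.1% of 27305 windows of the same length, 1 per gene; ACGTG alone occurred in 7 of the 33 and in 18.7% of all. The member windows had a median of 62.4% G and C, against 58.0% in all windows. The number of matches did not go with the difference in every member. HSPBAP1, with differences of −0.72 and −0.91 in DFO and Dp44mT, held 5, and TET3, with 0.22 and 0.29, also held 5. So did KDM4C, with 1.003 and 1.01, and KDM6A, with 0.74 and 0.96. ALKBH5, with 0.79 and 0.99, held 4, and KDM2A, with 0.66 and 1.09, held 3. JMJD1C, with 0.78 and 0.71, held 0, as did PHF8, with −0.48 and −1.49. Whether the matches go with the differences was not tested. A match is only a run of letters in a window. No binding was measured.

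KDM4 enzymes remove trimethyl marks from histone H3, and KDM4B is another known HIF target. KDM4B had log2 levels of 7.93 and 8.08 in control, 9.56 and 9.50 in DFO, and 9.64 and 9.69 in Dp44mT. The chelator arrays lay well above the control arrays. KDM4B rose by 2.88-fold in DFO (log2 1.53, SE 0.17, limma adjusted p = 0.0311) and by 3.18-fold in Dp44mT (log2 1.67, SE 0.17, adjusted p = 0.0181). All 6 of its tested probe sets had positive differences in both comparisons, from 0.24 to 1.57 in DFO and from 0.50 to 1.73 in Dp44mT. When the 8 probe sets of the gene were averaged, the differences were 0.70 and 0.77 and did not pass.

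The rest of the KDM4 subfamily did not pass. KDM4C had levels of 7.41 and 7.42 in control, 8.62 and 8.21 in DFO, and 8.49 and 8.35 in Dp44mT. Both chelators lay above control and overlapped each other. Its differences of 1.003 and 1.01 had adjusted p values of 0.139 and 0.0711 (limma). KDM4A had differences of 0.14 and 0.53. KDM4D lay near the filter limit of 5.55, at 5.33 to 6.18 over the 6 arrays, and no difference was detectable in it.

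**Figure D2:**
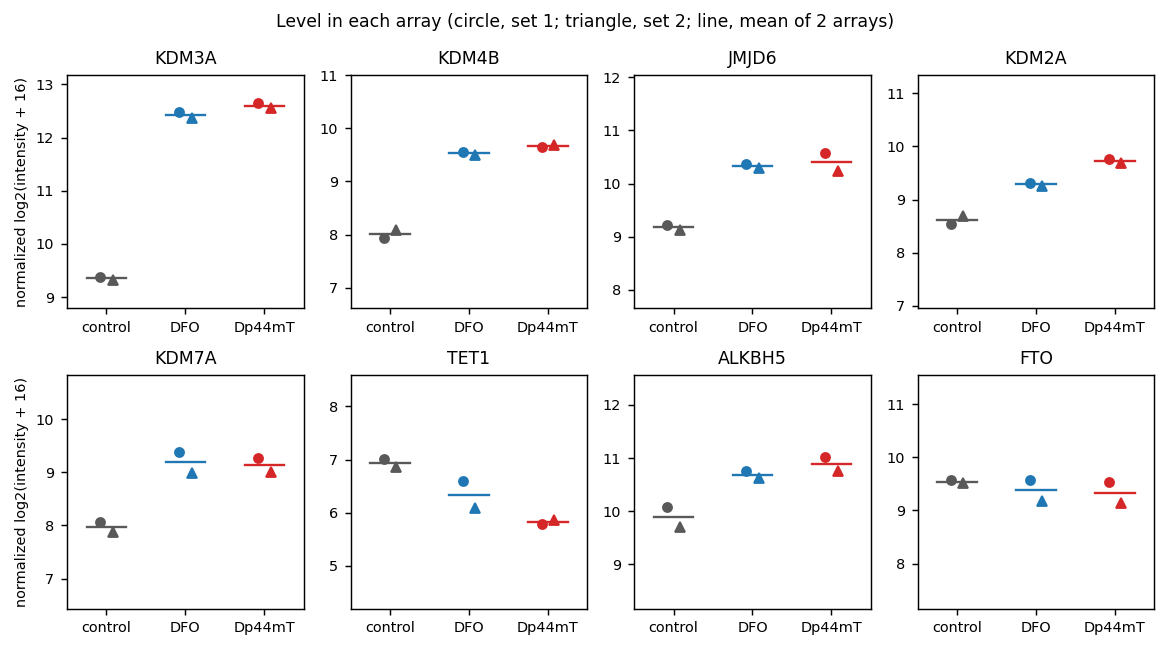
Normalized log2(intensity + 16) (y axis) of 8 members in control, DFO and Dp44mT, with circles for set 1, triangles for set 2 and lines for the mean of 2 arrays; the panels have equal spans at different levels. KDM3A, KDM4B, JMJD6 and KDM2A lie above control in both chelators, TET1 lies below it and FTO overlaps it.

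The KDM2 and KDM7 subfamily reads unmethylated or trimethylated chromatin and removes lower methyl states. KDM2A, which binds CpG islands, had levels of 8.55 and 8.69 in control, 9.32 and 9.25 in DFO, and 9.75 and 9.68 in Dp44mT. The groups did not overlap, and the Dp44mT arrays were the highest. KDM2A rose by 2.14-fold in Dp44mT (log2 1.09, SE 0.17, limma adjusted p = 0.0417), whereas its difference of 0.66 in DFO did not pass (adjusted p = 0.193). In control its brightest probe set was 208988_at, with a mean of 8.86, against 8.62 for 208987_s_at, which the gene fit used. Probe set 208987_s_at had the highest mean only because the chelator arrays were counted. The KDM2A call therefore depends on a choice made with the treated arrays. Probe set 208988_at had differences of −0.10 and −0.41. The average over the KDM2A probe sets did not pass (0.50 in Dp44mT, adjusted p = 0.203). Its relative KDM2B had differences of 0.12 and 0.03.

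KDM7A, a demethylase of silencing marks, had levels of 8.07 and 7.88 in control, 9.39 and 8.996 in DFO, and 9.28 and 9.01 in Dp44mT. The chelator arrays lay above control in each case, with differences of 1.22 and 1.17 that did not pass in the gene fit (adjusted p = 0.106 and 0.0631, limma). Its other probe set, 225142_at, had levels of 6.75 and 6.88 in control, 8.87 and 8.54 in DFO, and 8.92 and 8.50 in Dp44mT. That probe set rose by 3.70-fold in Dp44mT (log2 1.89, SE 0.24, limma adjusted p = 0.0353 over 40950 probe sets), and its difference of 1.89 in DFO had an adjusted p of 0.0538. Averaged over both probe sets, KDM7A passed in both comparisons, with 1.55 in DFO and 1.53 in Dp44mT (adjusted p = 0.0468 and 0.0338).

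The X-linked PHF8, a relative of KDM7A, had levels of 9.89 and 9.86 in control, 9.52 and 9.27 in DFO, and 8.80 and 7.97 in Dp44mT. Both chelators' arrays lay below control, the Dp44mT arrays furthest. The differences of −0.48 and −1.49 did not pass (adjusted p = 0.599 and 0.0717, limma). A second, dimmer probe set of PHF8, 238837_at, went the other way, at 1.04 and 1.38. In DFO it differed from the control array of the same number by −0.19 in set 1 and 2.27 in set 2. The average over all 3 PHF8 probe sets, including 215065_at, which did not pass the filter, was 0.24 and 0.05. PHF2, another relative, had −0.25 and −0.81, while its dimmer probe set 207138_at had 0.92 and 1.23.

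KDM5 enzymes remove methyl marks of active promoters. KDM5B, often raised in tumours, had levels of 8.40 and 8.42 in control, 9.31 and 9.29 in DFO, and 9.13 and 9.01 in Dp44mT. The groups did not overlap and the DFO arrays were the highest. The differences of 0.89 and 0.66 did not pass (adjusted p = 0.104 and 0.0949, limma), although all 4 tested probe sets were positive in both comparisons. KDM5A had levels of 10.15 and 10.002 in control, 10.39 and 10.24 in DFO, and 10.55 and 10.32 in Dp44mT, with differences of 0.24 and 0.36. The other 3 of its 4 tested probe sets were negative in both comparisons, down to −0.94 in DFO and −1.27 in Dp44mT. JARID2, a relative without demethylase activity that serves the Polycomb complex, had 0.28 and 0.50.

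KDM6 enzymes act against the Polycomb mark. KDM6A, also X-linked, had levels of 7.70 and 7.58 in control, 8.60 and 8.16 in DFO, and 8.85 and 8.36 in Dp44mT, with differences of 0.74 and 0.96 that did not pass (adjusted p = 0.318 and 0.109, limma). KDM6B had levels of 8.79 and 9.23 in control, 9.47 and 9.87 in DFO, and 9.42 and 9.33 in Dp44mT. Its chelator arrays lay above control, although the control arrays were themselves well apart, and the differences were 0.66 and 0.36. All 5 probe sets of KDM6B were positive in both comparisons, whereas the Dp44mT difference of its brightest probe set turned to −0.36 on the deposited scale.

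**Figure D3:**
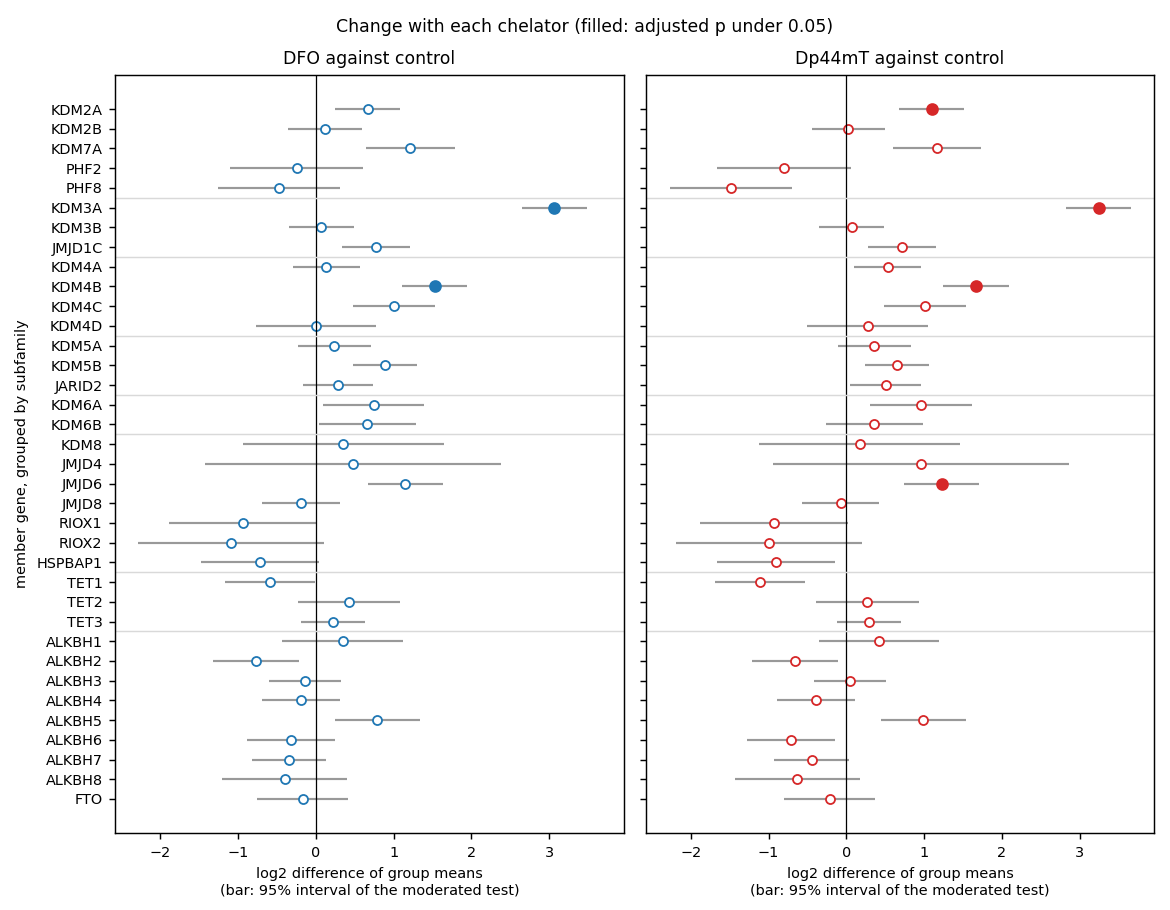
Log2 difference of group means (x axis) for each member gene (y axis, grouped by subfamily) in DFO and in Dp44mT against control; bars are 95% intervals of limma's moderated test and filled points passed at an adjusted p under 0.05. The filled points are KDM3A and KDM4B in DFO and KDM3A, KDM4B, JMJD6 and KDM2A in Dp44mT, and JMJD4 has the widest interval.

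Among the other JmjC proteins, most of which hydroxylate proteins rather than demethylate histones, JMJD6 was the member called. JMJD6 hydroxylates lysines of splicing factors. It had levels of 9.22 and 9.13 in control, 10.36 and 10.30 in DFO, and 10.57 and 10.23 in Dp44mT. The chelator arrays lay more than 1 log2 unit above both control arrays. JMJD6 rose by 2.34-fold in Dp44mT (log2 1.23, SE 0.19, limma adjusted p = 0.0432), and its difference of 1.15 in DFO did not pass (adjusted p = 0.0848). Its 3 tested probe sets were positive in both comparisons.

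The ribosomal oxygenases RIOX1 and RIOX2, which hydroxylate ribosomal proteins, had the lowest values of this group. RIOX1 had levels of 8.62 and 8.65 in control, 8.06 and 7.33 in DFO, and 8.12 and 7.29 in Dp44mT. RIOX2 had 8.55 and 8.94 in control, 7.998 and 7.31 in DFO, and 8.34 and 7.15 in Dp44mT. In both genes the set 2 chelator arrays were the lowest. The differences were −0.94 and −0.93 for RIOX1 and −1.09 and −0.997 for RIOX2, and none passed (adjusted p from 0.215 to 0.416, limma), while all 4 tested probe sets of RIOX2 were negative in both comparisons. HSPBAP1 had −0.72 and −0.91. KDM8, JMJD4 and JMJD8 had differences from −0.19 to 0.96, with chelator arrays that overlapped the control arrays in at least 1 comparison each.

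The TET enzymes, which start the removal of methyl groups from cytosine, did not move together. TET1 had levels of 7.01 and 6.85 in control, 6.60 and 6.09 in DFO, and 5.78 and 5.86 in Dp44mT. Both chelators' arrays lay below control, the Dp44mT arrays furthest. The differences of −0.59 and −1.11 did not pass in the gene fit (adjusted p = 0.37 and 0.0711, limma). Its second probe set, 214862_x_at, had levels of 6.89 and 6.99 in control, 6.20 and 5.27 in DFO, and 4.36 and 4.59 in Dp44mT. That probe set was the 1 member probe set called lower, in Dp44mT (log2 −2.46, SE 0.34, limma adjusted p = 0.0403). Its Dp44mT levels lay under the filter limit of 5.55 and near the lowest level the pseudocount allows, so the size of the fall is uncertain, and its name also marks possible cross-hybridization.

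TET3 had levels of 9.02 and 9.14 in control, 9.32 and 9.29 in DFO, and 9.40 and 9.33 in Dp44mT, with differences of 0.22 and 0.29 that turned to −0.13 and −0.43 on the deposited scale. TET2 had 0.42 and 0.27, with the chelator arrays above both control arrays; on the deposited scale its Dp44mT difference was −0.28. None of these passed.

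Several members of the ALKBH family, and FTO, remove methyl groups from RNA or damaged DNA. Of the 9 genes of the whole group, 0 passed with either chelator in limma, where 1.1% of all genes were called in DFO and 3.37% in Dp44mT. At an unadjusted p under 0.05, 1 was higher and 1 lower in DFO, where 5.76% and 7.59% of all genes were. In Dp44mT 1 was higher and 2 lower, where 8.21% and 15.9% were. The median of the 9 genes was −0.19 in DFO and −0.39 in Dp44mT. ALKBH5, a demethylase of methyladenosine in mRNA and a known HIF target, had levels of 10.08 and 9.71 in control, 10.75 and 10.62 in DFO, and 11.02 and 10.75 in Dp44mT. The chelator arrays lay above both control arrays, with differences of 0.79 and 0.99 (adjusted p = 0.228 and 0.0781), and all 3 of its probe sets were positive. FTO, which acts on the same mark, had 9.56 and 9.52 in control, 9.57 and 9.19 in DFO, and 9.53 and 9.13 in Dp44mT. Its set 1 chelator arrays were level with control and its set 2 arrays below it, and its differences were −0.17 (interval from −0.75 to 0.42) and −0.21 (from −0.80 to 0.37).

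ALKBH2, which repairs alkylated bases in DNA, had levels of 8.66 and 8.78 in control, 8.06 and 7.84 in DFO, and 8.26 and 7.85 in Dp44mT. Both chelators lay below control, at −0.77 and −0.66 (adjusted p = 0.241 and 0.153, limma). By their brightest probe sets, ALKBH4, ALKBH6, ALKBH7 and ALKBH8 also lay below control in all chelator arrays, between −0.71 and −0.19. The ALKBH7 probe set 227879_at went the other way, at 0.38 and 0.67, while its 227878_s_at had −0.38 and −0.54. ALKBH1 had 0.34 and 0.42, and ALKBH3 had −0.14 and 0.05.

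Dp44mT and DFO were also compared directly, at their different doses. No member gene was called (0 of 36, where 0% of all genes were called), and 2 had an unadjusted p under 0.05 in limma, 1 in each direction, where 1.55% of all genes were higher and 2.71% lower. With variance trend and robust moderation, 0 were called as well. Those 2 were KDM2A, at 0.43 (interval from 0.01 to 0.85), and PHF8, at −1.01 (from −1.80 to −0.23). For KDM3A the difference was 0.18 (from −0.24 to 0.60) and for KDM4B 0.14 (from −0.28 to 0.56). These intervals leave room for differences of up to about the size shown at their ends, so the test does not show equal responses. The fit also did not use the set number, although deviations of same-numbered DFO and Dp44mT arrays correlated at 0.84. Spread shared by the 2 chelator arrays of a set therefore counted as error, and the 0 calls are no evidence of similar responses.

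**Figure D4:**
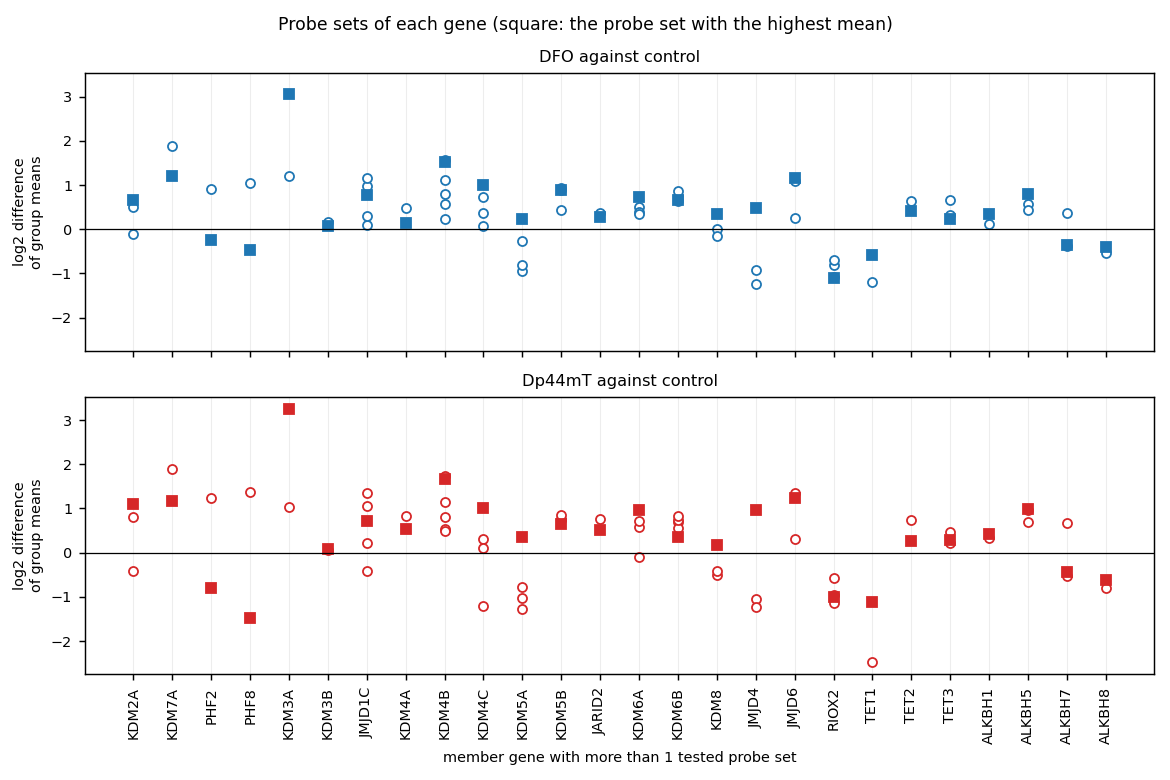
Log2 difference from control (y axis) of every tested probe set of the 26 members that have more than 1, for DFO (top) and Dp44mT (bottom); squares are the probe sets with the highest mean, used in the gene fit, and circles are the others. In 16 genes all probe sets share 1 sign in both comparisons, and KDM5A, PHF8, PHF2 and JMJD4 show squares and circles on opposite sides of 0.

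Read as probe sets, 3 of the 89 tested were called in DFO, all higher, where 0.589% of all 40950 probe sets were called, 0.569% higher and 0.0195% lower. These were 212689_s_at of KDM3A and 212496_s_at and 212492_s_at of KDM4B. In Dp44mT, 4 were called higher and 1 lower, where 1.07% and 0.564% were, or 1.64% in all. They were the same KDM3A and KDM4B probe sets with 225142_at of KDM7A and, as the 1 lower, 214862_x_at of TET1. The JMJD6 and KDM2A probe sets called in the gene fit had adjusted p = 0.0602 and 0.0603 here, where more features were tested. Of 26 members with more than 1 tested probe set, 13 were positive throughout both comparisons and 3 were negative throughout (RIOX2, TET1 and ALKBH8). The other 10 had both signs: KDM2A, PHF2, PHF8, JMJD1C, KDM4C, KDM5A, KDM6A, KDM8, JMJD4 and ALKBH7.

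Genes around these enzymes were read from lists, with counts given for DFO and Dp44mT in turn and both directions together. For comparison, 1.1% and 3.37% of all genes were called. At an unadjusted p under 0.05 in limma, 5.76% of all genes were higher and 7.59% lower in DFO, and 8.21% and 15.9% in Dp44mT. Of 5 genes of the flavin-dependent demethylases and their partners, which need no iron, 0 passed in limma in either comparison (1 and 2 at an unadjusted p under 0.05). KDM1A, the best known of them, had −0.30 and −0.42. Of 28 histone lysine methyltransferase and Polycomb genes tested, 0 passed (4 and 8 at an unadjusted p under 0.05), with medians of −0.05 and −0.10. Of 13 writers and readers of methyladenosine in RNA, 0 passed (4 and 4 unadjusted), with medians of 0.00 and −0.07. Of 14 enzymes that make or use α-ketoglutarate or related acids, 0 passed (2 and 2 unadjusted), with medians of −0.03 and 0.04. Of 5 further JmjC genes and relatives tested, 0 passed (0 and 1 unadjusted).

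Of 9 genes of DNA methylation and base excision, 0 passed in DFO and 1 in Dp44mT, lower, where 1.46% of all genes were called lower (limma). At an unadjusted p under 0.05, 3 were lower in DFO and 5 in Dp44mT, where 7.59% and 15.9% of all genes were, and 0 were higher. DNMT3B, which encodes a de novo DNA methyltransferase, had levels of 8.32 and 8.32 in control, 7.06 and 6.44 in DFO, and 6.52 and 6.13 in Dp44mT. The chelator arrays lay more than 1 log2 unit below control. DNMT3B fell by 3.998-fold in Dp44mT (log2 −1.999, SE 0.28, limma adjusted p = 0.0341), and its difference of −1.57 in DFO did not pass (adjusted p = 0.0967). The list medians were −0.35 and −0.61.

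The summed fibroblast and endothelial markers differed on the set 2 chelator arrays, but the single markers of each list went both ways. All 8 fibroblast markers were measured, 6 of them above the filter, and their summed normalized intensity was, for set 1 and set 2 in turn, 1195 and 751 in control, 971 and 2103 in DFO, and 1195 and 2451 in Dp44mT. The set 2 array was the lower in control and the higher with each chelator. All 6 endothelial markers were measured, 4 of them above the filter, with sums in the same order of 795 and 402 in control, 750 and 1714 in DFO, and 749 and 2114 in Dp44mT. From the set 2 control array to the set 2 DFO array, the deposited intensity of COL1A2 went from 37.2 to 369, that of COL3A1 from 47.1 to 344, that of DCN from 42.5 to 343 and that of PECAM1 from 313 to 1009, while on the set 1 arrays of control and DFO these genes were at 265 and 227, 303 and 209, 217 and 153, and 741 and 575. The remaining fibroblast markers went down between the set 2 control and DFO arrays, as did the array median (88.8 to 63.0). COL1A1 went from 472 to 285, LUM from 108 to 63.0, THY1 from 195 to 133, FAP from 26.3 to 13.1 and PDGFRB from 17.8 to 7.52. Among the endothelial markers TEK and CDH5 went down, and VWF, KDR and CLDN5 went up with PECAM1, which was the brightest. PDGFRB and CDH5, 2 dim genes of these lists, had deposited intensities of at most 22.4 and 12.6 on any array. Of 7 leukocyte markers 5 were measured, and their sum stayed between 260 and 407. From the set 1 DFO array against both control arrays, the KDM3A and KDM4B differences were 3.13 and 1.56, which rest on 1 chelator array. In Dp44mT against the control array of the same number, KDM3A had 3.26 in set 1 and 3.23 in set 2, and KDM4B had 1.72 and 1.62. The part of the cell type markers in the members' results, these 2 genes included, was not tested.

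**Figure D5:**
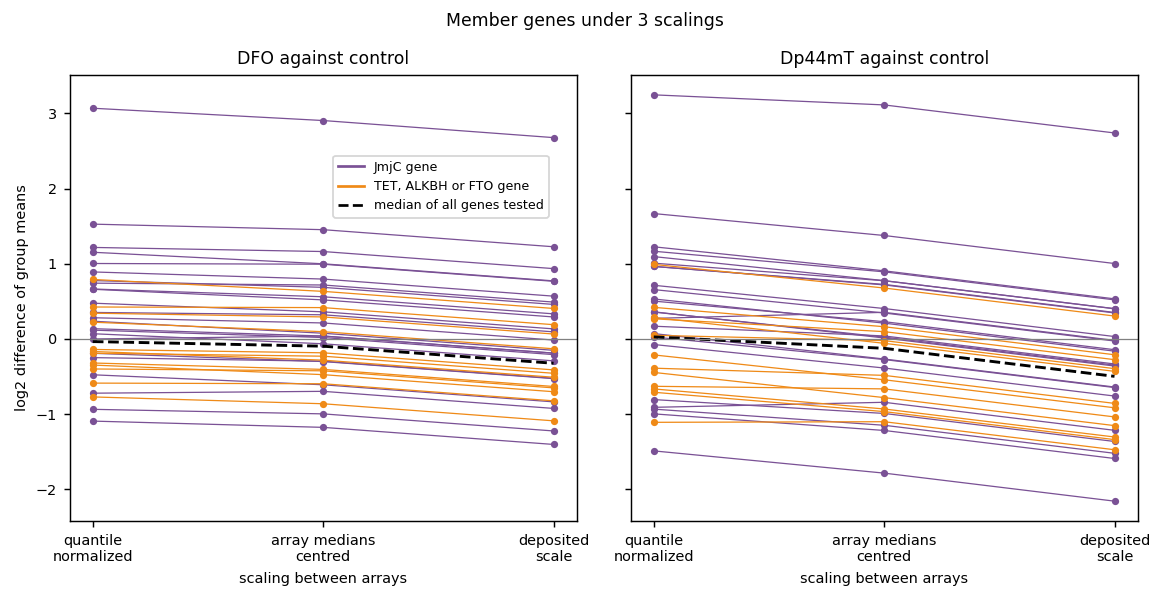
Log2 difference from control (y axis) of the 36 members under 3 scalings of the arrays (x axis), for DFO (left) and Dp44mT (right); each line is a gene and the dashed line is the median of all genes tested. Lines run nearly parallel to the dashed line, and in DFO 7 and in Dp44mT 13 members change sign between scalings.

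KDM3A stayed the highest member under all 3 scalings, at 2.68 to 3.07 in DFO and 2.74 to 3.25 in Dp44mT. On the deposited scale KDM3A passed in Dp44mT and not in DFO (adjusted p = 0.0969, limma), and KDM4B, JMJD6 and KDM2A passed in neither comparison. The signs of 29 members in DFO and 23 in Dp44mT were the same under the 3 scalings. With any 1 control array, or 1 array of the chelator compared, left out, none of the 36 passed in limma, while KDM3A ranged from 3.004 to 3.13 in DFO and from 3.20 to 3.29 in Dp44mT.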

How the data were processed

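Expression was measured on 6 arrays, 2 per group. The deposited values are intensities on a linear scale, 1 per probe set, and were exported by the authors; the submitters' processing notes list Affymetrix Expression Console 1.1; the summary method and the scaling between arrays are not given in the sources used here. From these intensities, log2(intensity + 16) was computed and quantile normalized, which removes any shift shared by most genes. Genes were named from the platform annotation: 41097 of 54675 probe sets have 1 symbol, 1801 several and 11777 none. A gene is its probe set with the highest mean; probe sets under the 25th percentile of the mean (5.55) were left out. The 3 groups were fitted together with limma 3.58.1 in R 4.3.3 (lmFit, eBayes, Benjamini-Hochberg adjustment), and the script was tested on simulated data. The pseudocount understates changes of low genes. The number of arrays limits precision: the median 95% interval reaches 0.64 to each side. With 2 arrays a side the smallest two-sided p of an exact permutation test is 0.333, so none was run. Both chelators share the control arrays. Values in every array are given for members that passed as a gene or probe set and, in each subfamily, for the member with the smallest p and that with the highest mean; the other members given in full were added after their values were seen. The members and gene lists were chosen with earlier results of these data known. Of 90 symbols in the lists of other genes and of chelation markers, 81 matched. Alternatives changed the scaling, pseudocount, filter, probe set rule, moderation, replicate block and arrays.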

Additional observations from a re-analysis of the deposited data

How the results depend on the processing

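The main counts were 2 member genes in DFO and 4 in Dp44mT, with medians of 0.18 and 0.27, and 3 and 5 member probe sets. On the deposited scale they were 0 and 1 genes, medians −0.17 and −0.35, and 0 and 0 probe sets (limma). With array medians centred they were 1 and 1 genes, medians 0.057 and 0.018, and 1 and 2 probe sets. With a pseudocount of 1, 2 genes in Dp44mT and 1 and 3 probe sets were called, and with 64, 10 probe sets in Dp44mT. With no filter 1 probe set was called in DFO, and with the 50th percentile the DFO median was 0.24. Averaging probe sets gave a Dp44mT median of 0.059. Trend and robust moderation gave 7 genes in Dp44mT and 5 and 13 probe sets. Leaving out 1 array at a time gave 0 to 1 genes in DFO and 0 to 2 in Dp44mT, 0 to 1 and 0 to 4 probe sets, and medians of 0.13 to 0.19 and 0.066 to 0.31. Without both set 2 chelator arrays, an alternative of the same kind, 0 genes passed in DFO and 19 probe sets in Dp44mT. Over all genes, the alternatives gave 0 to 511 calls in DFO and 0 to 2758 in Dp44mT, against 185 and 569. Settings that omit arrays also leave fewer arrays in the fit, and the cause of these moves was not tested.

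Between the 3 scalings, 7 of the 36 members in DFO and 13 in Dp44mT changed sign. Among the members named by the rule, signs reversed on the deposited scale for KDM5A (−0.15 in DFO, −0.35 in Dp44mT), TET3 (−0.13, −0.43), KDM5B (−0.028 in Dp44mT) and KDM6B (−0.36 in Dp44mT), with centred medians for TET3 (−0.058 in Dp44mT), and with averaged probe sets for PHF8 (0.24, 0.048) and KDM5A (−0.44, −0.65). The others include, on the deposited scale in Dp44mT, KDM4A (−0.16), JARID2 (−0.14), TET2 (−0.28) and ALKBH1 (−0.21), and KDM2B (−0.27) and KDM3B (−0.27) with centred medians. None of these genes passed in the main test.

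The set numbers were not taken to pair the arrays: deviations of same-numbered arrays correlated at −0.25 for control and DFO, −0.35 for control and Dp44mT, and 0.84 for DFO and Dp44mT. With the number as a replicate block, 2 and 5 member genes and 1 and 6 member probe sets were called, and 169 and 909 of all genes. With the control numbers crossed, an alternative chosen after seeing the data, 2 and 11 member genes and 4 and 25 probe sets were called.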

Other observations

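In KDM5A, 1 of the 4 tested probe sets went against the others, and some other members, PHF8 among them, had probe sets further apart in Dp44mT. The brightest KDM5A probe set had log2 differences of 0.24 in DFO and 0.36 in Dp44mT, whereas 226371_at had −0.94 and −1.27, 230226_s_at had −0.81 and −1.03, and 215698_at had −0.27 and −0.77. None of the 4 passed (limma adjusted p of 0.0963 or more). JMJD4 showed a similar split, with 0.48 and 0.96 for its brightest probe set and −0.93 and −1.05 for 222671_s_at. In JMJD4 the brightest probe set also differed between the arrays of a chelator, at 6.99 and 8.37 in DFO and 7.20 and 9.13 in Dp44mT, while its control arrays were at 7.21 and 7.19.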
